A study of Mus musculus with 12 samples.

Results

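B220-selected bone marrow cells of mice carrying both the Eµ-Myc and the Eµ-TTP-1 transgene were compared with those of mice carrying Eµ-Myc alone, on 3 arrays each, which are 6 of the 12 arrays of the study. Both groups came from littermates at 4 to 6 weeks of age on a background that was 94% C57BL/6. They carry Myc in common and differ by the TTP transgene. The labels place both at a precancerous stage, before the lymphomas that Eµ-Myc mice develop. Each transgene is driven by Eµ, the enhancer of the immunoglobulin heavy chain locus, which acts in the B lineage. The other 6 arrays, 3 wild type and 3 with Eµ-TTP-1 alone, entered the fit as littermate controls. RNA of each sample was hybridised to an Affymetrix MOE430 2.0 array. A gene was compared when it had a single symbol and a log2 intensity above 4 on at least 3 of the 12 arrays, which held for 10287 of 18194 genes. The labels call the samples biological replicates. Their number limits the precision, and array values give no read depth.

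MYC is a transcription factor that pairs with MAX at E-box sequences and drives genes of growth and division, and Eµ-Myc mice are a standard model of B-cell lymphoma. Tristetraprolin (TTP), the product of Zfp36, binds AU-rich elements of mRNAs and recruits the CCR4-NOT deadenylase and decapping factors, which destroy the mRNA. It is best known for limiting cytokine mRNAs such as that of Tnf. B220 is a surface protein of B-lineage cells from the pro-B stage onward, and plasmacytoid dendritic cells of mice carry it too.

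The 2 transgenic genes were examined first. Myc had a log2 intensity of 13.71, 13.92 and 12.99 on the 3 Eµ-Myc arrays and of 11.82, 12.73 and 13.37 on the 3 double transgenic arrays. The groups overlapped, and the difference, double transgenic minus Eµ-Myc as everywhere below, was -0.90 ± 0.95 (SE) on the log2 scale (limma adjusted p = 0.576). The wild-type arrays had 9.65, 9.68 and 12.65, and the Eµ-TTP-1 arrays 10.05, 10.39 and 13.47. The arrays labelled wild type 3 and TTP 3 therefore lay at the level of the Myc groups, against their labels, and they bear on this comparison through the spread that all 4 groups share.

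Zfp36 was at 9.28, 9.34 and 9.997 on the Eµ-Myc arrays and at 7.47, 8.62 and 9.18 on the double transgenic arrays. All 3 double transgenic values lay below all 3 Eµ-Myc values, although these mice carry the TTP transgene. The difference of -1.12 ± 0.39 did not pass (adjusted p = 0.197). A single probe set measured the gene, and no source at hand says whether the transgene includes the stretch it reads. Its level is therefore no check of the TTP label. Of the other family members, Zfp36l1 differed by -0.34 ± 0.30 and Zfp36l2 by -0.52 ± 0.33 (adjusted p = 0.508 and 0.387).

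Within each group an array stood apart. Myc 3 had much more signal of granulocyte genes than Myc 1 and 2, with a mean log2 level of 11.18 against 6.30 and 7.52. Xist, transcribed from the inactive X chromosome, was at 1.86, 13.55 and 13.68 on the Eµ-Myc arrays and at 13.53, 13.39 and 8.51 on the double transgenic arrays. The Y-linked Kdm5d was at 9.33, 2.55 and 2.69 and at 2.61, 2.65 and 8.97. Xist and a Y-linked gene were thus both present on Myc TTP 3, and on Myc 3 the Y-linked Eif2s3y was at 5.05 beside Xist. The arrays numbered 3 in the wild-type and Eµ-TTP-1 groups also had both. The results that rest on these arrays are therefore given with all arrays and without the 4 arrays numbered 3. Those arrays were chosen with earlier results known, so values without them are descriptions for any gene in which Myc 3 lies toward the double transgenic arrays: leaving it out enlarges the difference by that choice alone.

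Most genes were slightly higher on the double transgenic arrays, and none passed the test. Of the 10287 genes, 8742 (85.0%) had a positive difference, and the median difference was 0.27. The limma fit on all 12 arrays called 0 genes (0%) at an adjusted p under 0.05, and the smallest adjusted p was 0.139. At an unadjusted p under 0.05 there were 1966 genes (19.1%), of which 1875 (18.2%) were higher and 91 (0.885%) lower. An unmoderated linear model called 16 genes, all higher.

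The upward shift belonged to whole arrays. The median log2 intensity of the tested genes was 8.96, 8.98 and 8.96 on the Eµ-Myc arrays and 9.38, 9.21 and 9.10 on the double transgenic arrays. The groups did not overlap, and the difference of 0.26 had an exact permutation p = 0.1 (two-sided), the smallest that 3 against 3 arrays allow. With a common array median the median difference was 0.01, and 5283 genes (51.4%) had a positive difference. On the deposited scale the 3 double transgenic values lay above the 3 Eµ-Myc values for 3321 genes (32.3%) and below them for 145 (1.41%). With a common median these counts were 724 (7.04%) and 865 (8.41%). A difference near 0.27 on the deposited scale is therefore that of the middle gene.

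**Figure D1:**
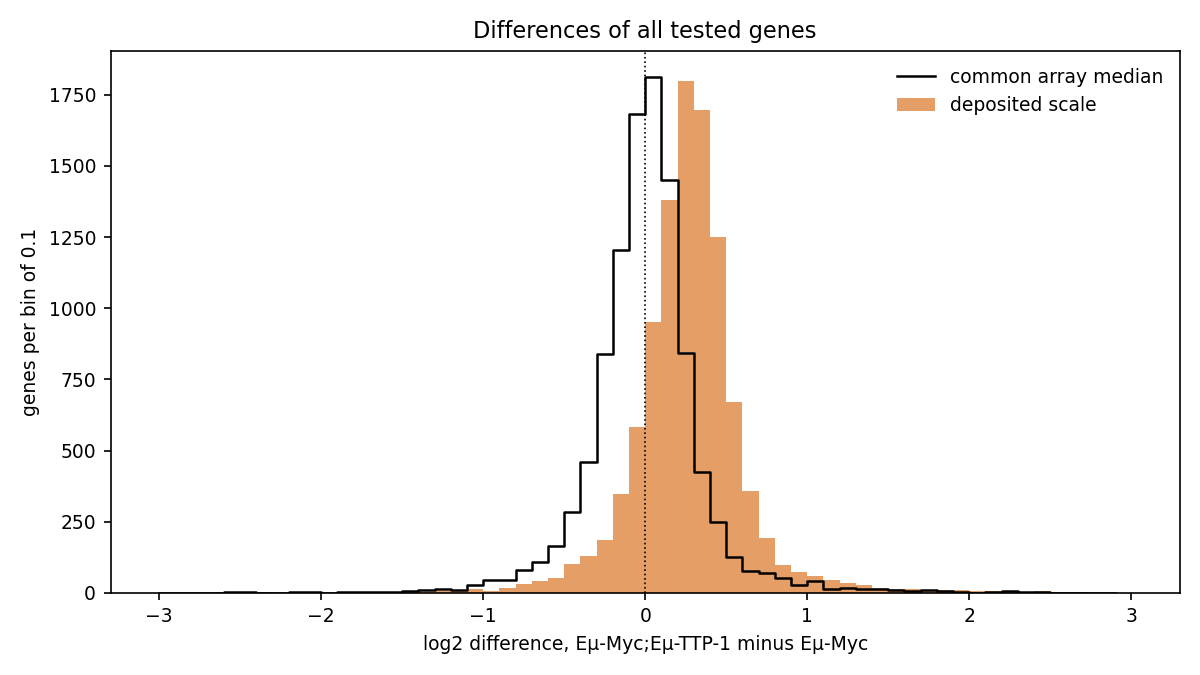
Distribution of the log2 differences of the 10287 tested genes, double transgenic minus Eµ-Myc, in bins of 0.1, with the number of genes on the y axis. Filled bars show the deposited scale, centred near 0.27, and the black line the same genes after setting a common array median, centred near 0.01.

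The 12 genes higher with the smallest p had differences of 0.61 to 1.41. Psme4 encodes the proteasome activator PA200. Its log2 intensity was 11.78, 11.84 and 12.11 on the Eµ-Myc arrays and 12.80, 12.60 and 12.61 on the double transgenic arrays. The groups did not overlap, and the wild-type values of 12.34, 12.28 and 12.45 lay between them. The difference was 0.76 ± 0.11 (adjusted p = 0.139), and of 5 other probe sets of Psme4 1 had the opposite sign.

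Slc37a1, a sugar phosphate transporter family member, was at 6.55, 6.69 and 6.77 on the Eµ-Myc arrays and at 8.07, 8.10 and 8.06 on the double transgenic arrays. The double transgenic values lay among those of wild type, 7.94, 8.10 and 7.84, and all 3 Eµ-Myc values lay below both. The difference of 1.41 ± 0.21 is 2.65-fold (adjusted p = 0.139). Without TTP 3, an array outside the contrast, Slc37a1 rose past the threshold as the single gene called (adjusted p = 0.0201). With a common array median its difference was 1.14 and did not pass (adjusted p = 0.126).

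Rsph1, a radial spoke head protein of cilia, was at 8.71, 8.32 and 8.91 against 10.11, 9.76 and 9.88 and differed by 1.27 ± 0.19 (adjusted p = 0.139). Slc11a2, the divalent metal transporter DMT1, was at 6.87, 6.94 and 7.22 against 8.10, 7.89 and 7.96 and differed by 0.98 ± 0.16. Acp6, a lysophosphatidic acid phosphatase, was at 8.18, 7.83 and 7.98 against 9.13, 8.85 and 9.10, a difference of 1.03 ± 0.17. Of these 3 genes, Acp6 had Eµ-Myc values that overlapped those of wild type, 8.03, 8.03 and 8.44. Rsph1 and Slc11a2 were lower in Eµ-Myc than on any wild-type array.

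The remaining 7 of the 12 genes with the smallest p had differences of 0.61 to 0.99 and adjusted p of 0.145. They were Ppp6r3, a regulatory subunit of protein phosphatase 6, the KRAB domain gene Pogk, the endocytosis factor Fcho1, the complex I assembly factor Ndufaf3, Mien1, Zfyve21 and Vps16, a core subunit of the HOPS and CORVET tethering complexes. Of 2 other probe sets of Ppp6r3, 1 was -0.81. On the deposited scale the separation of the groups held in each of the 12 genes by the rule that named them, and with a common array median it held in each too. Their differences with a common median were 0.34 to 1.14.

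Among genes lower on the double transgenic arrays, Ccnd1 stood out by size. It encodes cyclin D1, which activates CDK4 and CDK6 in G1, and its mRNA is a reported TTP target. It was at 10.22, 9.48 and 8.25 on the Eµ-Myc arrays and at 7.52, 7.39 and 7.54 on the double transgenic arrays. The double transgenic values were tightly grouped and lay below every Eµ-Myc value, while Myc 3 lay near the wild-type values of 7.94, 8.23 and 7.89. The difference was -1.83 ± 0.40, or 3.56-fold (adjusted p = 0.172), and both other probe sets had the same sign, at -1.74 and -2.07. Without Myc 3, the Eµ-Myc array nearest to the double transgenic ones, the difference was -2.37 and crossed the threshold (adjusted p = 0.0161), which is no independent test. With a common array median the difference was -2.10 (adjusted p = 0.363). Among the Eµ-Myc arrays, Ccnd1 was lowest where granulocyte genes were highest, and their part was not tested.

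Fgd2, an exchange factor for the GTPase CDC42, was at 9.10, 9.27 and 9.04 on the Eµ-Myc arrays and at 8.51, 8.02 and 8.21 on the double transgenic arrays. The wild-type values of 8.35, 8.66 and 8.55 overlapped those of the double transgenic arrays. The difference of -0.89 ± 0.16 had an adjusted p of 0.156. With a common array median Fgd2 fell by 1.15 and was the single gene called (adjusted p = 0.0443). After quantile normalization 0 genes were called, with 666 at an unadjusted p under 0.05.

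S100a6, a calcium-binding protein, was at 9.95, 11.41 and 9.84 against 8.37, 7.91 and 7.98. All double transgenic values lay below those of the other 9 arrays, the lowest of which was 9.62. The difference was -2.31 ± 0.53, or 4.97-fold (adjusted p = 0.172). Its relative S100a10, the annexin A2 partner p11, was at 13.54, 13.54 and 12.98 against 12.87, 12.98 and 12.80, with the lowest Eµ-Myc and highest double transgenic values nearly equal. It differed by -0.47 ± 0.14 (adjusted p = 0.178). Without Myc 3, again the nearest array, S100a10 was at -0.66 (adjusted p = 0.0412), also no independent test.

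The other 8 of the 12 genes lower with the smallest p differed by -0.86 to -2.36, with adjusted p of 0.172 to 0.178. Eid2, an inhibitor of differentiation that binds EP300, was at 7.58, 7.81 and 7.18 against 6.22, 6.26 and 6.03. Zcchc10 was at 9.51, 8.11 and 8.46 against 5.64, 6.59 and 6.79. In both genes the double transgenic values were near those of wild type, which were 5.63 to 6.38 for Eid2 and 5.97 to 6.32 for Zcchc10. Ubl3, a ubiquitin-like protein, differed by -1.10 ± 0.24, Helz2 by -0.97 ± 0.25 and the podosome scaffold Sh3pxd2a by -1.22 ± 0.30. For Helz2 the double transgenic values lay below the wild-type values of 9.26 to 9.80 as well. Hspa12a, an HSP70 family member, had a double transgenic mean below the floor of log2 4 and was at least 2.28-fold lower. Nacc2 differed by -0.86, with 1 of 2 other probe sets at 0.35. Kdm5a, a histone H3K4 demethylase, differed by -1.03, but its 3 other probe sets were at 0.27, 0.20 and 0.22, so its direction depends on the probe set.

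**Figure D2:**
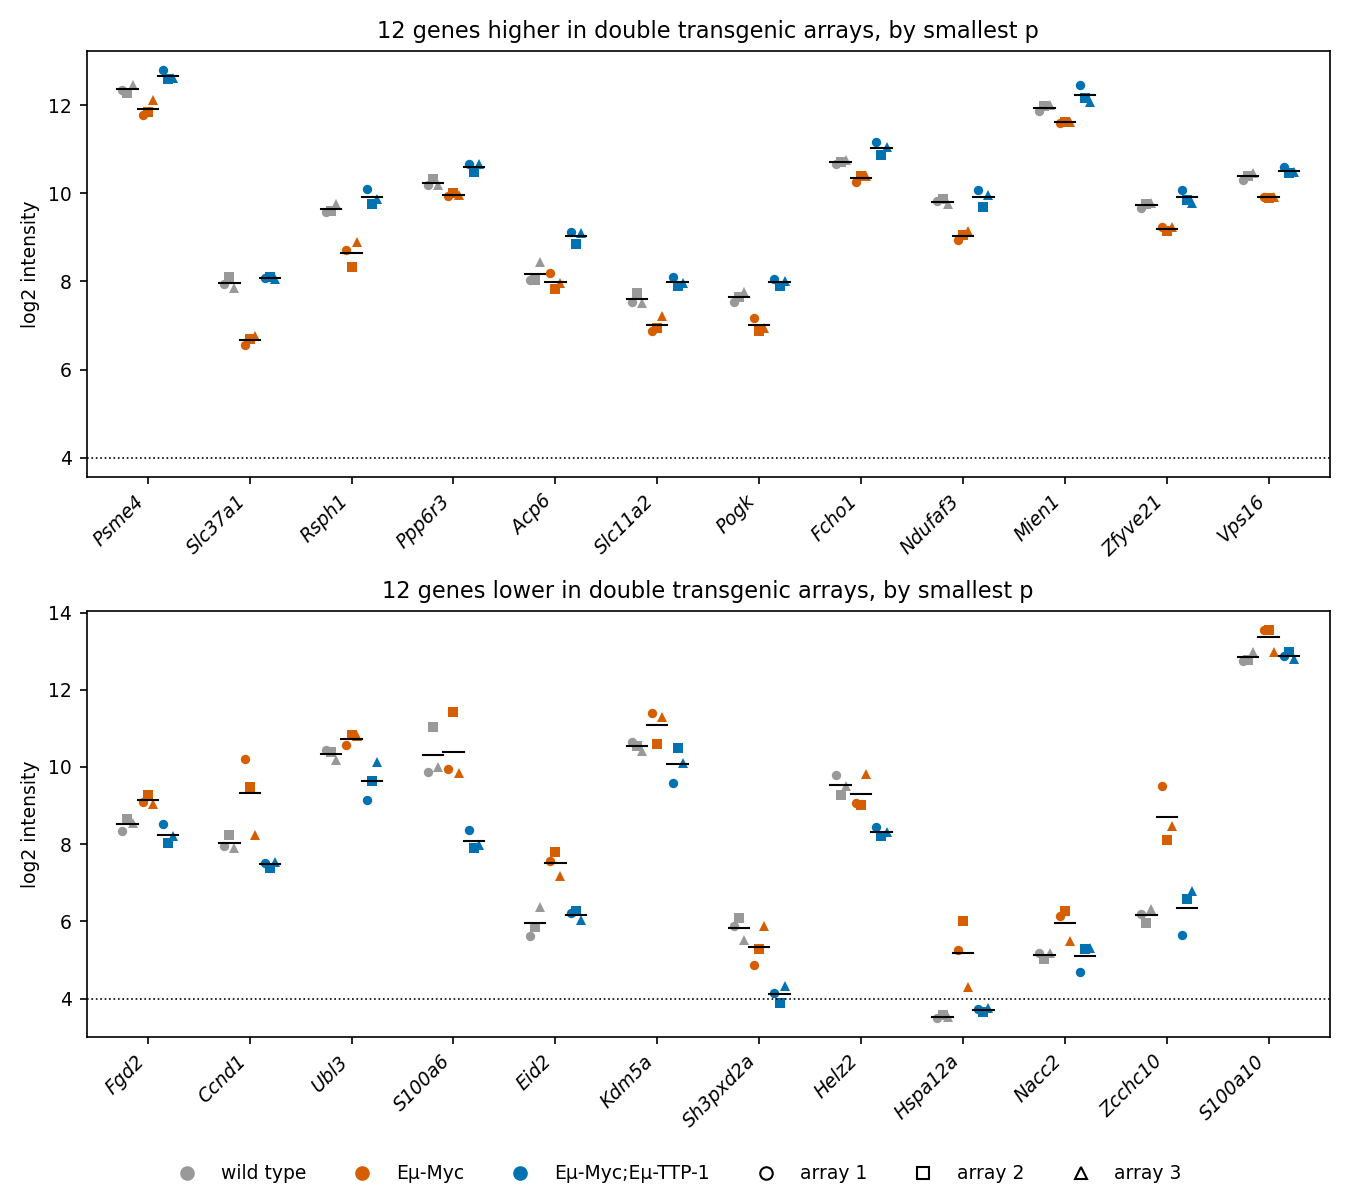
Log2 intensity on each wild-type (grey), Eµ-Myc (orange) and double transgenic (blue) array for the 12 genes higher and the 12 genes lower with the smallest p among genes whose groups did not overlap. Symbols mark the array number, bars the mean of 3 arrays and the dotted line the floor of 4. Slc37a1 is at 8.06 to 8.10 on the double transgenic and 6.55 to 6.77 on the Eµ-Myc arrays, and Ccnd1 at 7.39 to 7.54 and 8.25 to 10.22.

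Because MYC and MAX bind the E-box CACGTG, the promoters of these 24 genes were searched for it. The word is its own reverse complement, so both strands are covered at once. The window ran from 250 bases before to 50 after the RefSeq start on GRCm38.p6, and a promoter was at hand for 10 of the 12 higher and 8 of the 12 lower genes. It was found in 3 of the 10, Pogk, Mien1 and Vps16, and in 1 of the 8, S100a6. Their matches are shown with 11 bases on either side, 5′ to 3′ on the strand of the gene, with the E-box in capitals, because they are the 4 of these 18 promoters that hold the MYC recognition word.
Pogk, chr1:166409815-166409842, minus strand: tcccctcccacCACGTGtcctcgctccc
Mien1, chr11:98438988-98439015, minus strand: gacacgcccccCACGTGactttggcgtg
Vps16, chr2:130424291-130424318, plus strand: ggcggcctcgtCACGTGaccccgaaggg
S100a6, chr3:90612897-90612924, plus strand: gagtttcgagtCACGTGccagaagggaa
The match began at -3, -16 and -18 relative to the start in Pogk, Mien1 and Vps16, and at 14 in S100a6. Of 8440 tested genes with a promoter, 12.3% held the word. It was in 12.6% of promoters of genes higher without overlap and in 7.69% (9 of 117) of those lower without overlap. Of all 27025 promoters in the table, 8.09% held it. A match describes the sequence and not binding.

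The MYC and MAX network itself was near the middle of all genes. Of 12 tested members 10 were higher, with a median of 0.32 against 0.27 for all genes, and 0.05 with a common array median. The MAX partners Mxi1 and Mxd4, which compete with MYC, differed by 0.49 ± 0.13 and 0.64 ± 0.19. The MAX-like factor Mlx differed by 0.67 ± 0.20, and Zbtb17 (MIZ1), through which MYC represses genes, by 0.56 ± 0.17. Zbtb17 was at 9.05, 9.04 and 9.05 on the Eµ-Myc arrays and at 9.74, 9.45 and 9.63 on the double transgenic arrays. Each of the 4 had an adjusted p of 0.178.

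Of 34 reported TTP targets, 21 were tested, and 13 of these were higher, against 85.0% of all genes. Their median was 0.21, or -0.05 with a common array median. The groups did not overlap for 1 higher target, E2f1, and for 2 lower ones, Ccnd1 and Tnf (32.3% and 1.41% of all genes). With a common median they did not overlap for 1 higher and 4 lower targets (7.04% and 8.41% of all genes). E2f1, a transcription factor of S-phase entry, was at 8.91, 8.93 and 8.62 against 9.50, 9.41 and 9.12 (0.52 ± 0.17, adjusted p = 0.181). Tnf was below the floor of log2 4 on all 6 arrays, so the order of its values has no meaning. The urokinase receptor gene Plaur was at 5.87, 6.23 and 6.46 against 5.91, 5.06 and 4.68, with overlap (-0.97 ± 0.39, adjusted p = 0.230).

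The machinery through which TTP acts was measured by 26 genes of deadenylation and decapping. Of these 21 were higher, with a median of 0.26, and -0.01 with a common array median. The groups did not overlap for 8 higher and 2 lower genes (32.3% and 1.41% of all genes), and with a common median for 1 higher and 3 lower (7.04% and 8.41% of all genes). The first count is near the background. Edc4, a scaffold of the decapping complex, was at 9.72, 9.78 and 9.80 against 10.44, 10.13 and 10.17 and differed by 0.48 ± 0.12 (adjusted p = 0.178). Cnot9, a CCR4-NOT subunit, differed by 0.49 ± 0.16 (adjusted p = 0.186). The 8 other AU-rich element binding proteins had a median of 0.13, with 6 higher on the deposited scale and 2 with a common median.

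Genes of DNA replication and mitosis had medians of 0.32 and 0.31, near the 0.27 of all genes, with many members free of overlap. Of 30 DNA replication genes 29 were higher, and 18 were higher without overlap, against 32.3% of all genes. With a common array median 20 were higher, 6 of them without overlap (7.04% of all genes), and the median was 0.06. Lig1, the DNA ligase of replication, was at 11.84, 11.87 and 11.71 against 12.26, 12.29 and 12.32 (0.48 ± 0.11, adjusted p = 0.172). The licensing factor Cdt1 was at 12.61, 12.79 and 12.64 against 13.31, 13.08 and 13.04 (0.46 ± 0.11, adjusted p = 0.172). For 29 mitosis genes 17 were higher without overlap, also above the share of 32.3% of all genes. After setting a common median 3 were higher and 3 lower without overlap, against 7.04% and 8.41% of all genes, and the median was 0.05. Bub1b, a spindle checkpoint kinase, differed by 0.58 ± 0.16.

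Ribosome biogenesis, a main output of MYC, had a median of 0.25 over 45 genes and of -0.02 with a common array median. Of these genes 12 were higher without overlap on the deposited scale, a share below the 32.3% of all genes, and 0 with a common median (7.04% of all genes). Nop14, a factor of small subunit assembly, was at 10.11, 10.13 and 9.45 against 10.64, 10.27 and 10.28 (0.50 ± 0.29, adjusted p = 0.351). The mitochondrial folate enzyme Mthfd2 was at 11.56, 11.59 and 10.69 against 12.06, 11.94 and 11.68 (0.61 ± 0.31, adjusted p = 0.295). In both, Myc 3 was the lowest array of the 6. Nucleotide and polyamine synthesis had a median of 0.28 over 23 genes, translation factors 0.19 over 19, cytosolic ribosomal proteins 0.10 over 22, mitochondrial import and chaperones 0.28 over 20, oxidative phosphorylation 0.21 over 25 and glycolysis 0.23 over 18. With a common median these were 0.02, -0.08, -0.17, 0.01, -0.05 and -0.04.

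Single genes of these groups departed further. Impdh1, which catalyses the first step of guanine nucleotide synthesis, was at 6.78, 7.14 and 6.86 against 7.93, 7.83 and 7.58 (0.85 ± 0.20, adjusted p = 0.172). Ndufv1, a core subunit of complex I, differed by 0.51 ± 0.14 (adjusted p = 0.178). Idi1, an isomerase of the cholesterol pathway, was at 10.34, 10.36 and 9.83 against 8.44, 9.12 and 9.52 (-1.15 ± 0.48, adjusted p = 0.235). The double transgenic values of Idi1 lay below every Eµ-Myc value. The wild-type values were 8.24, 8.37 and 8.90. Only the last, from wild type 3, lay within the double transgenic range, and the others lay below it. Myc on wild type 3 was at the level of the Myc groups, against its label. Cholesterol synthesis as a list of 18 genes had a median of 0.10, and -0.16 with a common median.

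Among cell cycle regulators and BCL2 family members a few genes were lower in the double transgenic cells. Cdkn1c, the CDK inhibitor p57, was at 6.23, 5.20 and 4.57 against 4.23, 4.56 and 4.30 (-0.97 ± 0.36, adjusted p = 0.209). Pmaip1, the BH3-only protein NOXA, was at 8.56, 7.50 and 6.94 against 6.59, 6.74 and 6.76 (-0.97 ± 0.35, adjusted p = 0.200). Like Ccnd1, both were highest on Myc 1 and, among the Eµ-Myc arrays, lowest on Myc 3. On the double transgenic arrays both were close to wild type, whereas Ccnd1 lay below its wild-type values. Bcl2l11, the BH3-only protein BIM, was higher, at 9.72, 9.86 and 9.59 against 10.45, 10.31 and 10.29 (0.63 ± 0.15, adjusted p = 0.172), although 1 of its 4 other probe sets was at -0.084. Cdc25a, a phosphatase that activates CDKs, differed by 0.52 ± 0.17. Over 20 cyclins, CDKs and inhibitors the median was 0.26, over 13 BCL2 family genes 0.35, and over 20 genes of p53 and its targets 0.24.

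The markers of the labelled cell type were present. Of 7 B-cell markers 6 were measured, all of them above the floor, and their summed intensity was 58330 to 82417 on the Eµ-Myc and 62795 to 68978 on the double transgenic arrays. The 19 tested pan-B genes had a median of 0.10, and -0.17 with a common array median. Ms4a1 (CD20) was at 13.13, 13.13 and 13.87 against 12.92, 12.95 and 13.33 (-0.31 ± 0.25). The E2A factor gene Tcf3 was at 12.72, 12.57 and 12.60 against 13.06, 12.89 and 12.96 (0.34 ± 0.10, adjusted p = 0.178), and 0.07 with a common median. Bank1, an adaptor of the B-cell receptor, was at 9.16, 10.26 and 9.73 against 8.45, 8.35 and 8.83, below all other arrays of the study (-1.17 ± 0.44, adjusted p = 0.211).

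Genes of pro-B and pre-B cells were higher in the double transgenic cells than on Myc 1 and 2, but not than on Myc 3. Of 25 tested genes 22 were higher, near the share of 85.0% of all genes. Their median was 0.56 against 0.27 for all genes, and 0.29 with a common median. In 1 of them, Irf4, the groups did not overlap, against 32.3% of all genes higher without overlap. With a common median 0 were higher without overlap (7.04% of all genes). The mean log2 level of the list was 9.29, 9.25 and 10.64 on the Eµ-Myc arrays and 10.60, 10.37 and 10.19 on the double transgenic arrays. Granulocyte genes were likewise highest among the Eµ-Myc arrays on Myc 3, and their part in this was not tested. Dntt, the terminal transferase of pro-B cells, was at 7.24, 6.30 and 10.01 against 10.89, 10.19 and 9.97 (2.50 ± 0.84, adjusted p = 0.188). Vpreb1 and Igll1 encode the surrogate light chain of the pre-B receptor. Vpreb1 was at 8.37, 8.30 and 11.73 against 11.64, 11.33 and 10.84 (1.80 ± 0.83, adjusted p = 0.267), and Igll1 at 9.27, 9.22 and 11.65 against 11.42, 11.29 and 11.34 (1.30 ± 0.58, adjusted p = 0.258).

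Other members were likewise highest among the Eµ-Myc arrays on Myc 3. Il7r, the receptor of interleukin-7, was at 9.19, 10.19 and 11.94 against 11.82, 11.70 and 11.41, and the transcription factor Erg at 3.18, 3.27 and 6.44 against 6.93, 6.36 and 5.93. Kit was at 3.54, 3.64 and 6.20 against 6.30, 6.29 and 4.52, and Lef1 at 9.40, 9.27 and 10.10 against 10.65, 10.71 and 10.03. In each of these 4 genes Myc 3 lay within or above the double transgenic values. The recombinase gene Rag1 was different, at 12.01, 12.35 and 13.38 against 12.40, 12.44 and 12.22 (-0.22 ± 0.41, adjusted p = 0.753).

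Among the largest differences without overlap, which were chosen after their values were seen, were more genes with this pattern. Enpep, the early B-cell surface peptidase BP-1, was at 7.46, 7.77 and 9.43 against 10.57, 10.49 and 9.67 (2.02 ± 0.48, adjusted p = 0.172). Arpp21 was at 4.77, 4.67 and 6.04 against 7.92, 7.28 and 6.93 (2.22 ± 0.44, adjusted p = 0.156). Gpr12, an orphan receptor, was at 3.25, 4.32 and 6.50 against 7.31, 6.91 and 7.05 (2.40 ± 0.69, adjusted p = 0.178). Lat, an adaptor of antigen receptor signalling, differed by 1.68 ± 0.43. Tacc2 (1.80 ± 0.35) and Whrn (1.74 ± 0.33), by contrast, were lowest on Myc 3, and Tnnt2, with an Eµ-Myc mean below the floor, was at least 2.88-fold higher. Without Myc 3 the differences of Enpep, Arpp21, Gpr12 and Lat were 2.63, 2.66, 3.30 and 2.18. No test is given for these, since the genes were picked for a pattern in which Myc 3 is the nearest array.

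**Figure D3:**
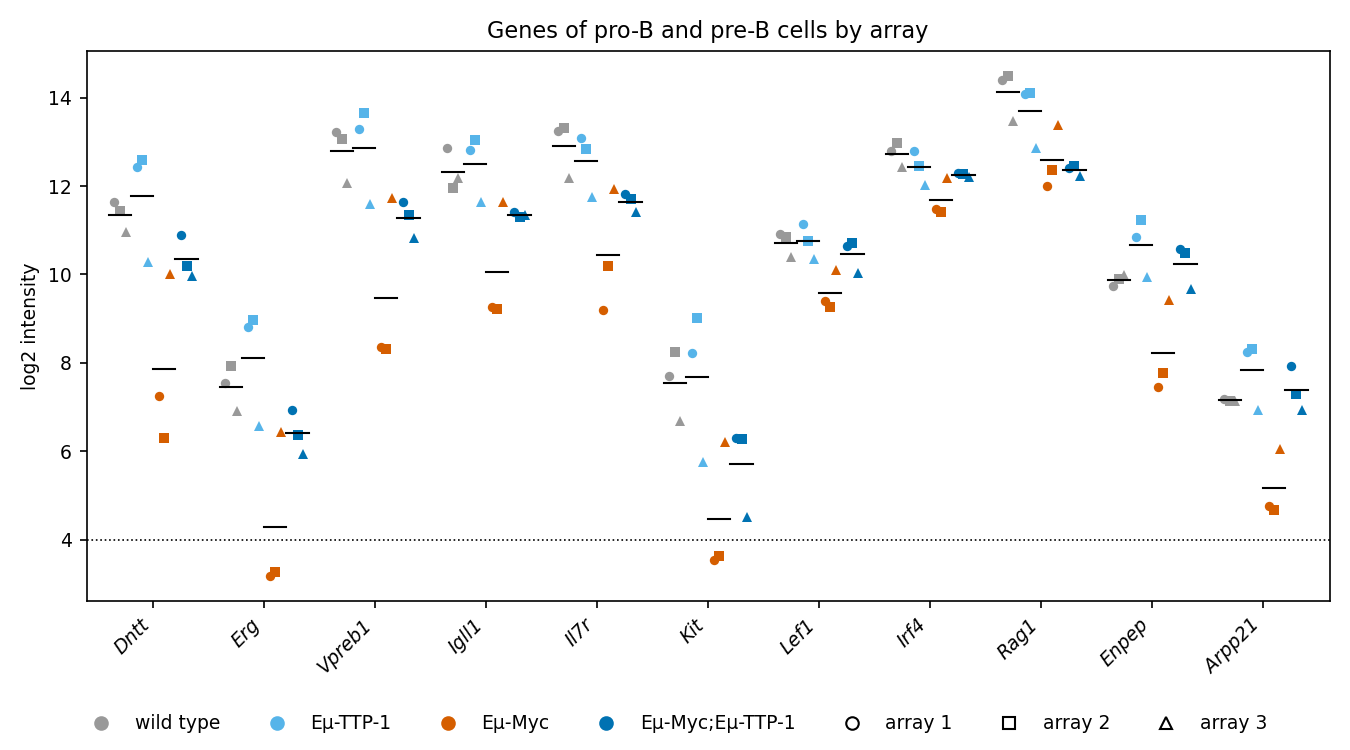
Log2 intensity of 11 genes on each array of the 4 groups, 9 of the pro-B and pre-B list and Enpep and Arpp21, with symbols for the array number, bars for the mean of 3 arrays and a dotted line at the floor of 4. For Vpreb1, Myc 1 and 2 are at 8.37 and 8.30, whereas Myc 3, at 11.73, lies with the double transgenic arrays at 10.84 to 11.64.

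The largest lower differences, also chosen after their values were seen, differed in which Eµ-Myc array was high. Chst7, a carbohydrate sulfotransferase, was at 7.25, 7.19 and 5.15 against 3.81, 4.21 and 5.06, and the secreted glycoprotein Fstl1 at 9.56, 9.92 and 7.67 against 7.56, 7.43 and 7.22. Both were higher on Myc 1 and 2 than on Myc 3. Their differences of -2.17 ± 0.82 and -1.65 ± 0.60 did not pass (adjusted p = 0.212 and 0.203). Ahnak, a large scaffold protein, was at 8.96, 10.89 and 8.57 against 8.23, 7.60 and 7.79 (-1.60 ± 0.61), highest on Myc 2. Klf3, a factor of mature B cells, was at 8.37, 8.60 and 9.08 against 6.31, 7.94 and 7.21 (-1.53 ± 0.58), highest on Myc 3, with 1 of 4 other probe sets of opposite sign.

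Jchain, the joining chain of IgM and IgA, followed another order. It was at 5.53, 6.85 and 8.28 on the Eµ-Myc arrays, at 4.85, 5.34 and 5.25 on the double transgenic arrays, and at 11.23, 10.50 and 9.95 on the wild-type arrays. It was thus lowest with both transgenes and highest with neither, and the difference from Eµ-Myc was -1.74 ± 0.63 (adjusted p = 0.205). Sdc1, the plasma cell marker CD138, was at 7.78, 7.79 and 8.58 against 8.73, 8.74 and 8.43 (0.58 ± 0.26), and Prdm1 was at or below the floor on all 6 arrays. Mature B-cell genes had a median of 0.09 over 24 genes, and B-cell receptor signalling 0.19 over 23. In the latter the adaptor Pik3ap1 was at 8.02, 8.27 and 9.12 against 9.36, 9.17 and 9.01 (0.71 ± 0.30, adjusted p = 0.237).

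Genes of granulocytes, erythroid cells and NK cells were also higher on Myc 3 than on Myc 1 and 2, by a wider margin than the pro-B and pre-B list. Of 18 granulocyte genes 18 were higher (85.0% of all genes), with a median of 2.14 (1.88 with a common median). None was free of overlap, against 32.3% of all genes higher without overlap. Their mean log2 level was 6.30, 7.52 and 11.18 on the Eµ-Myc arrays and 10.93, 10.09 and 9.80 on the double transgenic arrays. Mpo, the peroxidase of neutrophil granules, was at 4.06, 5.85 and 10.50 against 10.80, 9.67 and 8.74 (2.93 ± 1.37, adjusted p = 0.271). Elane differed by 2.69 ± 1.30, the granule protein Ngp by 2.13 ± 0.96 and S100a8 by 1.56 ± 0.68. The summed intensity of the 9 measured granulocyte markers was 8988 to 201026 on the Eµ-Myc arrays, 101954 to 152035 on the double transgenic arrays and 213167 to 292061 on the wild-type arrays. In these bulk samples, fewer cells of a type and less RNA per cell cannot be told apart.

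Erythroid genes had a median of 1.68, with 17 of 17 higher, and mean levels of 5.11, 4.88 and 8.32 against 8.16, 8.04 and 5.96. The erythroid factor Klf1 was at 3.22, 3.09 and 9.16 against 8.91, 8.93 and 4.46 (2.28 ± 1.66, adjusted p = 0.437), so the arrays numbered 3 were reversed in both groups. Alas2, of erythroid heme synthesis, was at 2.19, 3.03 and 5.07 against 6.19, 5.93 and 3.89. Hba-a1 was at or below the floor on all 6 arrays. NK-cell genes had a median of 0.98 and mean levels of 3.27, 3.28 and 5.74 on the Eµ-Myc arrays, with Gzma, a granule protease, at 4.05, 4.94 and 8.81 against 8.86, 8.48 and 8.05 (2.53 ± 1.00, adjusted p = 0.224).

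Plasmacytoid dendritic cell genes, whose cells carry B220, had a median of 0.54, with 12 of 12 higher, and monocyte and macrophage genes also 0.54, with 13 of 16 higher. Their marker sums were 5007 to 12303 against 8291 to 11778, and 1659 to 17545 against 7497 to 14221. Basophil and mast cell genes had a median of 0.99 (sums of 20.7 to 207 against 121 to 292), T-cell genes 0.56, megakaryocyte genes 0.74, stromal genes 0.57 and stem and progenitor genes 0.26. The Eµ-Myc arrays differed less in T-cell genes (mean levels of 4.07, 3.90 and 4.56) and stromal genes (5.46, 5.46 and 6.07), and megakaryocyte genes were lowest on Myc 3 (4.66, 4.77 and 4.61). The T-cell markers Cd3e, Cd3g and Cd3d were at or below the floor on all 6 arrays, as were Itga2b and Gp9 of megakaryocytes, Ms4a2 of mast cells, Cd34 and Hlf of progenitors and Lepr of stroma. The part of these cells in the differences of other genes was not tested.

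**Figure D4:**
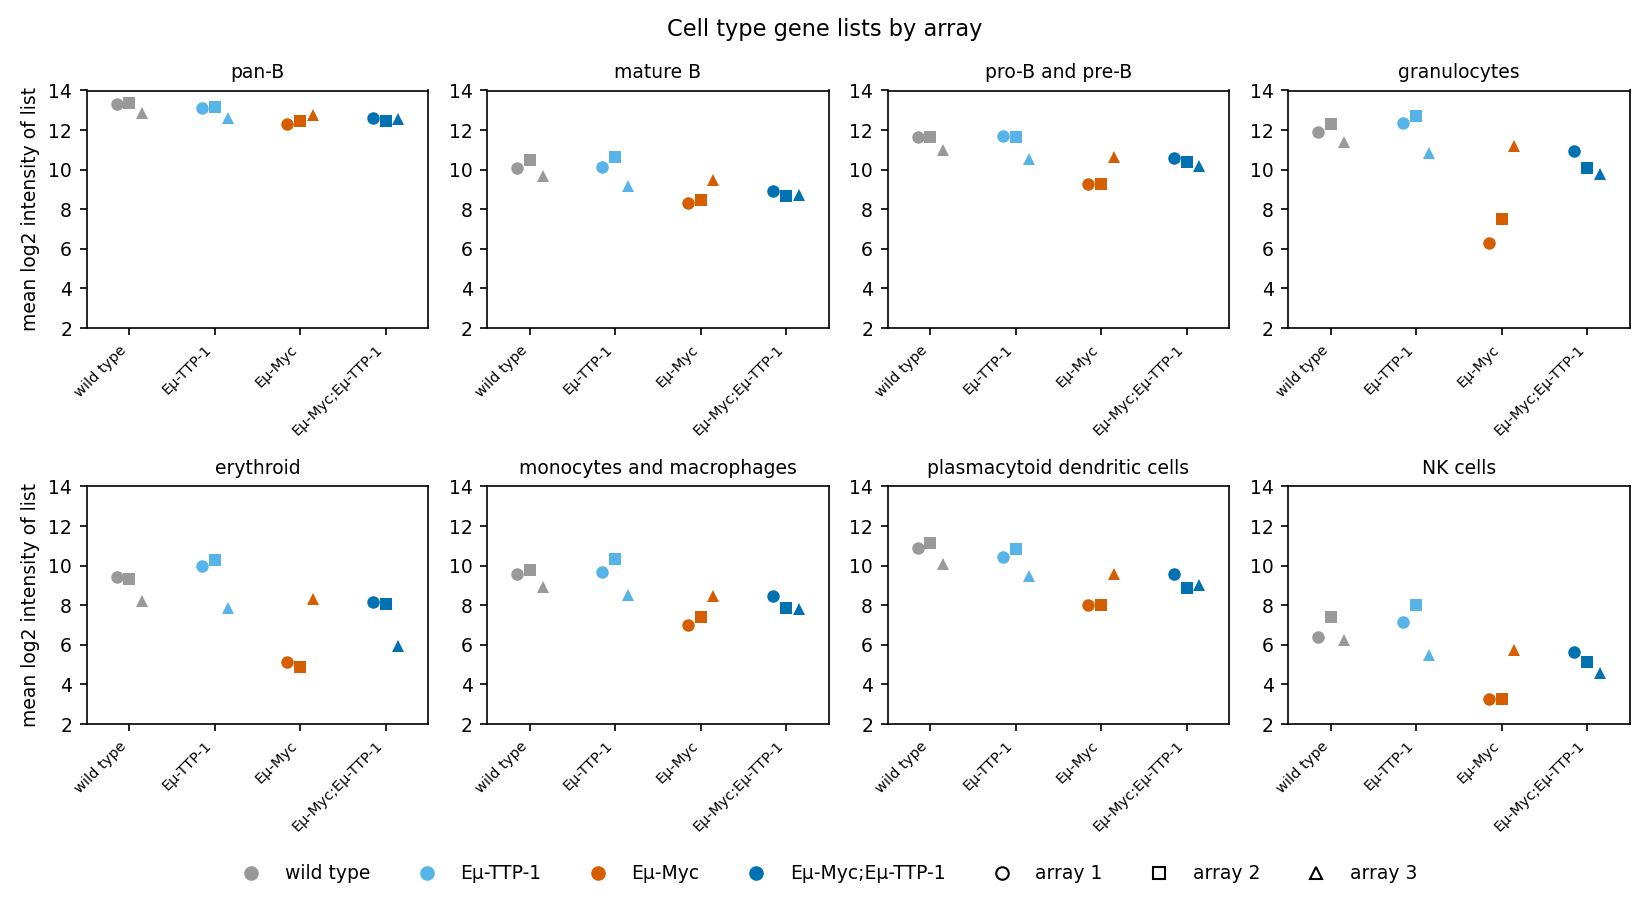
Mean log2 intensity of 8 cell type gene lists on each of the 12 arrays, by group, with symbols for the array number. In the granulocyte panel Myc 1 and 2 are at 6.30 and 7.52 and Myc 3 at 11.18, while the double transgenic arrays span 9.80 to 10.93. The pan-B panel stays within a narrow range.

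Without the 4 arrays numbered 3, the fit on 8 arrays with 4 residual degrees of freedom called 1514 genes (14.7%), of which 1455 (14.1%) were higher and 59 (0.574%) lower. With a common median as well it called 550 (5.35%), 429 (4.17%) higher and 121 (1.18%) lower, and 478 genes (4.65%) were called in both. These counts rest on 2 arrays a group.

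For the lists in which Myc 3 was the highest Eµ-Myc array, the values without those arrays are a description, and no count of calls is given. The median difference was 3.89 for granulocyte genes, 3.78 for erythroid, 1.83 for NK-cell, 1.24 for plasmacytoid dendritic cell and 0.84 for pro-B and pre-B genes, against 0.31 for all genes. With a common median these were 3.57, 3.45, 1.51, 0.92 and 0.52, against -0.01. Mpo differed by 5.28, Dntt by 3.77, Vpreb1 by 3.15, Enpep by 2.91 and Igll1 by 2.11. Rag1 was at 0.24. Interferon response genes had a median of 0.84 and NF-kB genes of 0.73, and on the Eµ-Myc arrays the mean levels of both lists were highest on Myc 3, at 7.33 against 6.03 and 6.01 and at 9.20 against 7.45 and 7.69. Ribosome biogenesis, which was lowest on Myc 3, had a median of 0.06, with 0 of 45 genes called, and DNA replication had 7 of 30 called higher, 0 with a common median. Of all genes 14.7% were called, 14.1% higher, and 4.17% were called higher with a common median.

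In Ccnd1, Chst7, Hspa12a and Myc as well, Myc 3 was the Eµ-Myc array nearest to the double transgenic ones. Without the arrays numbered 3 Ccnd1 was at -2.39, Chst7 at -3.21 and Myc at -1.53. In Fgd2 and S100a6 Myc 3 was also the lowest Eµ-Myc array, but close to Myc 1. Fgd2 was at -0.92 in place of -0.89, and S100a6 was at -2.54 in place of -2.31. In Zfp36 Myc 3 was the highest Eµ-Myc array and Myc TTP 3 the nearest double transgenic one, and the difference was -1.27. With a common median as well, Fgd2 was at -1.24 and S100a6 at -2.87. No test is given for these genes, since in each an array nearest to the other group was left out.

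Without Myc 3 alone, 28 genes (0.272%) were called, 26 (0.253%) higher and 2 (0.0194%) lower. The 2 lower genes were Ccnd1 and S100a10. Among the higher were Psme4 (0.86), Rsph1, Slc11a2, Ngp, S100a8 and Gzma. In each of these Myc 3 was the highest Eµ-Myc array, so that its omission enlarged the difference.

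**Figure D5:**
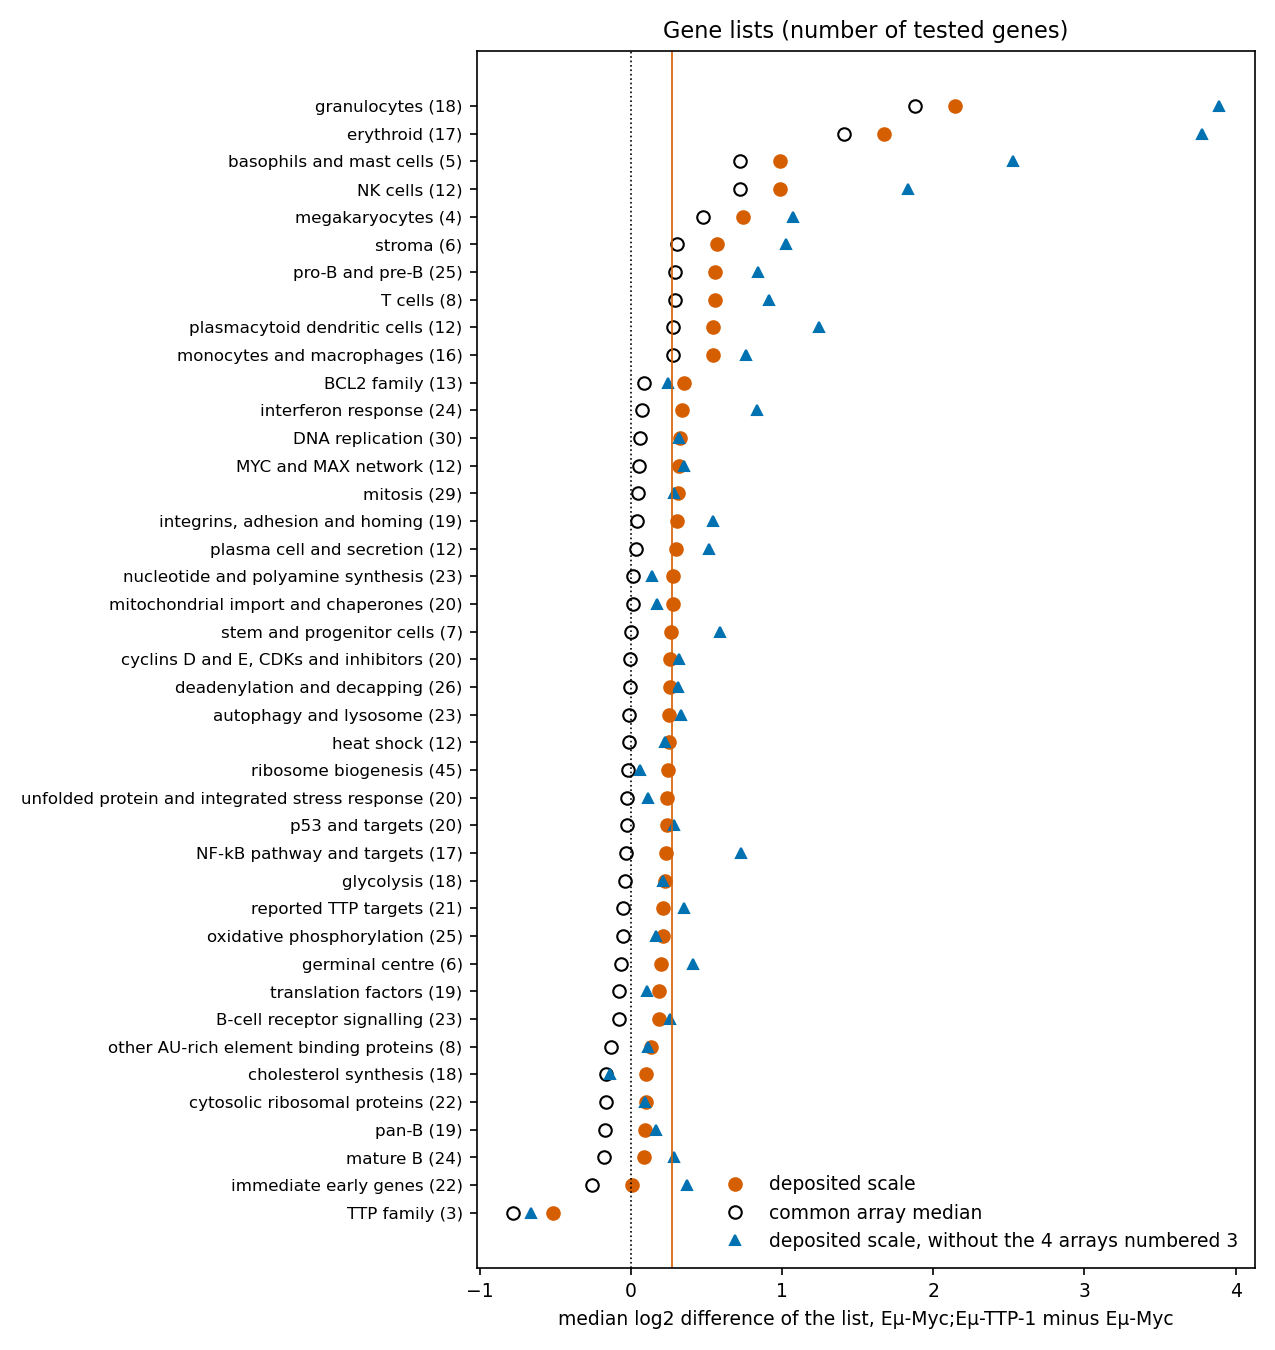
Median log2 difference of each gene list on the x axis, with the number of tested genes after its name. Filled circles show the deposited scale, open circles a common array median and triangles the deposited scale without the 4 arrays numbered 3. The vertical line marks the median of all genes, 0.27. Granulocyte and erythroid genes lie farthest to the right, at 2.14 and 1.68, and move to 3.89 and 3.78 without those arrays.

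Interferon, NF-kB, stress and turnover genes had medians near that of all genes with all arrays, and immediate early genes a lower one. Interferon response genes had a median of 0.34 over 24, among them Stat2 at 6.01, 5.88 and 5.14 against 6.80, 6.78 and 6.30 (0.95 ± 0.37, adjusted p = 0.220). NF-kB genes had a median of 0.23, immediate early genes 0.01, stress response genes 0.24 and heat shock genes 0.25. Of 22 immediate early genes 11 were higher, against 85.0% of all genes, and their median was -0.25 with a common array median. Autophagy and lysosome genes had a median of 0.25 over 23, and 9 of them were higher without overlap, against 32.3% of all genes. On a common median 3 were higher and 2 lower without overlap (7.04% and 8.41% of all genes). Ulk1, the kinase that starts autophagy, was at 9.08, 9.24 and 9.35 against 9.92, 9.78 and 9.63 (0.55 ± 0.17, adjusted p = 0.178). Gabarapl1, an ATG8 family protein, was at 5.90, 5.89 and 6.37 against 7.36, 7.05 and 6.94 (1.06 ± 0.34, adjusted p = 0.180). For Gabarapl1 the double transgenic values lay near the wild-type values of 6.96 to 7.67. Of the 41 list medians 40 were above 0 on the deposited scale and 20 with a common median.

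Whether the TTP transgene was accompanied by another difference with Myc than without it was tested as an interaction, the difference between double transgenic and Eµ-Myc minus that between Eµ-TTP-1 and wild type. None of the 10287 genes passed in the limma fit (0 genes, 0%). The smallest adjusted p was 0.358, and 1351 genes (13.1%) lay below an unadjusted p of 0.05. The unmoderated linear model also called 0. The contrast without Myc includes wild type 3 and TTP 3, whose Myc values lay at the level of the Myc groups, against their labels. With only wild type 3 and TTP 3 left out, the interaction called 0 genes, on the deposited scale and with a common median. Without all 4 arrays numbered 3, so also without Myc 3 and Myc TTP 3, it called 235 genes (2.28%), and 73 (0.710%) with a common median. That omission was chosen with earlier results known, and these counts rest on 2 arrays a group. The 5 genes with the smallest p were Psme4, Slc37a1, Rsph1, Pogk and Ypel2, and 4 of these are among those named above. Slc37a1 differed by 1.41 with Myc and by -0.40 ± 0.21 without it, an interaction of 1.80 ± 0.30. Pogk differed by 0.99 with Myc and by -0.42 ± 0.17 without it, and Ypel2 by 0.68 and -0.34 ± 0.14. On arrays 1 and 2 alone, Eµ-TTP-1 minus wild type was -0.20 for Slc37a1, -0.40 for Pogk and -0.43 for Ypel2. For Ccnd1 the interaction was -1.60, and the Eµ-TTP-1 values, 7.47, 8.19 and 7.71, overlapped those of wild type. The adjusted p of each of these genes was 0.358.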

How the data were processed

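The authors deposited intensity values of 45101 probe sets on a linear scale, summarised by GCRMA per the submitters' processing notes, which name no version. GCRMA commonly includes a normalization between arrays, yet the deposited array medians still differed. Over all probe sets the median intensity was 10.9 to 11.3 on the Eµ-Myc and 12.5 to 13.9 on the double transgenic arrays. The origin of this difference was not tested. A change in total RNA per cell cannot be read from such values, and probe sets lacking signal share a low value. The sources used here give no further steps. From the deposited intensity, log2 values were taken with no pseudocount. The platform annotation gave 34958 probe sets a single symbol, 932 several and 9211 none, and 34754 symbols were updated through RefSeq (GRCm38.p6). Of several probe sets of a gene, that with the highest mean over the 12 arrays was used. Group means were compared with limma 3.58.1 in R 4.3.3 (lmFit, eBayes with an intensity trend, two-sided, Benjamini-Hochberg over 10287 genes, threshold 0.05) on all 12 arrays, with 8 residual degrees of freedom. The fit was tested on simulated data with independent noise for each gene, which held no shift of whole arrays and no outlying array. Errors of differences are SE.

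The genes compared and the 41 gene lists were chosen with earlier results of these data known, as was leaving out the arrays numbered 3. The genes named are a part of those a fixed rule selects: without 5 called genes, the 12 in each direction with the smallest p and no overlap of the groups, up to 4 members of each list with the smallest p (3 for other cell types), the transgenic genes and their families, the cell type markers, and 5 for the interaction. Enpep, Arpp21, Jchain and the genes given as largest differences were chosen after their values were seen, as were the members of a list named beyond the 4. Lists are described by counts and medians, without a test. Alternatives covered the floor, probe sets, scaling, pseudocount, moderation, array weights, arrays in the fit, replicate block and each array left out.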

Additional observations from a re-analysis of the deposited data

How the results depend on the processing

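No gene was called with no filter, a floor of log2 6, the probe set with the largest SD, every probe set, quantile normalization, a pseudocount of 16, no intensity trend, the 6 arrays alone, or an adjusted p under 0.01 or 0.10. The replicate block called 0 genes for both contrasts. Same-numbered arrays of the 2 groups had residual correlations of -0.398, -0.029 and -0.309. With 3 arrays a group these values cannot decide whether the numbers pair them. A common array median called 1 gene, and the unmoderated linear model 16. Array weights called 3110 and, for the interaction, 176, but their estimation stopped before convergence and gave Myc TTP 2 a weight of 8.52. Every probe set gave 1 for the interaction. Leaving out each array in turn called 0 to 28 genes, 1 of them without TTP 3 and 28 without Myc 3, and 0 for the interaction. Without wild type 3 and TTP 3, 1 gene was called, Slc37a1, and 0 for the interaction. Without the 4 arrays numbered 3, 1514 were called, and 235 for the interaction. Of alternatives added after the data were seen, a common array median gave 550 without those 4 arrays (73 for the interaction), 27 without Myc 3, and 0 with the 6 arrays alone or without wild type 3 and TTP 3. The array weights kept the 12 arrays, and the other large counts rest on fewer arrays. The cause of the differences between settings was not tested.

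Of 86 genes named with values, 7 reversed in at least 1 setting. With every probe set tested, a probe set of Psme4 was at -0.22, of Ppp6r3 at -0.81, of Kdm5a at 0.27, of Nacc2 at 0.35, of Klf3 at 0.023 and of Bcl2l11 at -0.084. The probe set with the largest SD gave the same values for Ppp6r3, -0.81, and Bcl2l11, -0.084. Rag1 was at 0.071 with array weights, between -0.51 (without Myc 1) and 0.18 (without Myc 3) when 1 array was left out, and at 0.24 without the 4 arrays numbered 3.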
